A study of Mus musculus with 4 samples.

Results

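Renal glucose handling was followed through 9 genes chosen by name: the carriers Slc5a1, Slc5a2, Slc2a1 and Slc2a2, the enzymes Pcx, Pck1, Fbp1 and G6pc, and the transporter Slc37a4. All non-control probes carrying one of these names, or its current alias, were taken from the scanner files. They came to 10 probes of 8 genes, out of 41142 probes of 20761 genes on the array, and Pck1 was not analysed here. The kidneys came from mice labelled NLRC5-/- and from C57BL/6 wild type mice, with C57BL/6 given as the background of both genotypes and an age of 8 weeks for every animal. Injured kidneys had 30 min of bilateral ischemia followed by reperfusion, and the sham kidneys had the operation alone. The reperfusion time is 48 h in the titles and design but 24 h in the descriptions. The 4 groups, knockout injured, wild type injured, knockout sham and wild type sham, had 1 array each, so no value below has a replicate check. Nothing in the labels says how the Nlrc5 deletion was made or how many animals gave RNA to an array.

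The proximal tubule takes back filtered glucose in 2 steps. Sodium-coupled carriers of the SLC5 family bring glucose in across the brush border, and facilitative carriers of the SLC2 family let it leave across the basolateral membrane into the blood. The same cells make glucose from lactate, glutamine and other precursors. Pyruvate carboxylase and phosphoenolpyruvate carboxykinase start that path, fructose-1,6-bisphosphatase takes it past the phosphofructokinase step, and glucose-6-phosphatase, fed by its own transporter in the endoplasmic reticulum, releases free glucose.

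Values are log2 of the scanner's processed signal minus the 75th percentile of that array, so 0 is the level of the 75th percentile probe. All 10 member probes were well above background on 4 of 4 arrays and none was saturated. The scanner's own error for a log2 difference between arrays was 0.20 to 0.24 for these probes, and repeated spots of 175 other probes gave an SD of 0.15. Both leave out differences between animals. The 75th percentile itself was 362 in knockout injured, 182 in wild type injured, 465 in knockout sham and 456 in wild type sham. Both knockout arrays lay on 1 slide and both wild type arrays on another, so slide and genotype cannot be told apart, while each injury comparison was made within a slide. The knockout sham array alone had a female pattern of sex-chromosome genes: Xist read 5.20 there against values not above background on the other 3 arrays, while 4 of 4 Y-linked genes were not above background on that array. Each comparison with knockout sham therefore also compares sexes. The Nlrc5 probe read -3.62 in knockout injured, -3.34 in wild type injured, -3.77 in knockout sham and -4.08 in wild type sham. It did not separate the genotypes, and whether it lies in the deleted part is not given, so knockout and wild type here are the labels of the arrays.

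After injury, knockout kidney had 1 of 8 genes, Fbp1, at least 2-fold lower and 0 higher, against 4.2% lower and 4.93% higher among all 16822 genes above background. Wild type kidney had 6 of 8 genes at least 2-fold lower, namely Slc5a2, Slc2a2, Pcx, Fbp1, G6pc and Slc37a4, against 15.1% of 16468 genes. Slc2a1 was the only member at least 2-fold higher in wild type, against 14.5% of genes. The median injury difference was -0.25 for the members and 0.02 for all genes in knockout, and -2.20 for the members and -0.02 for all genes in wild type. The gene values used in these counts are those of the brightest probe where a gene had 2.

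**Figure D1:**
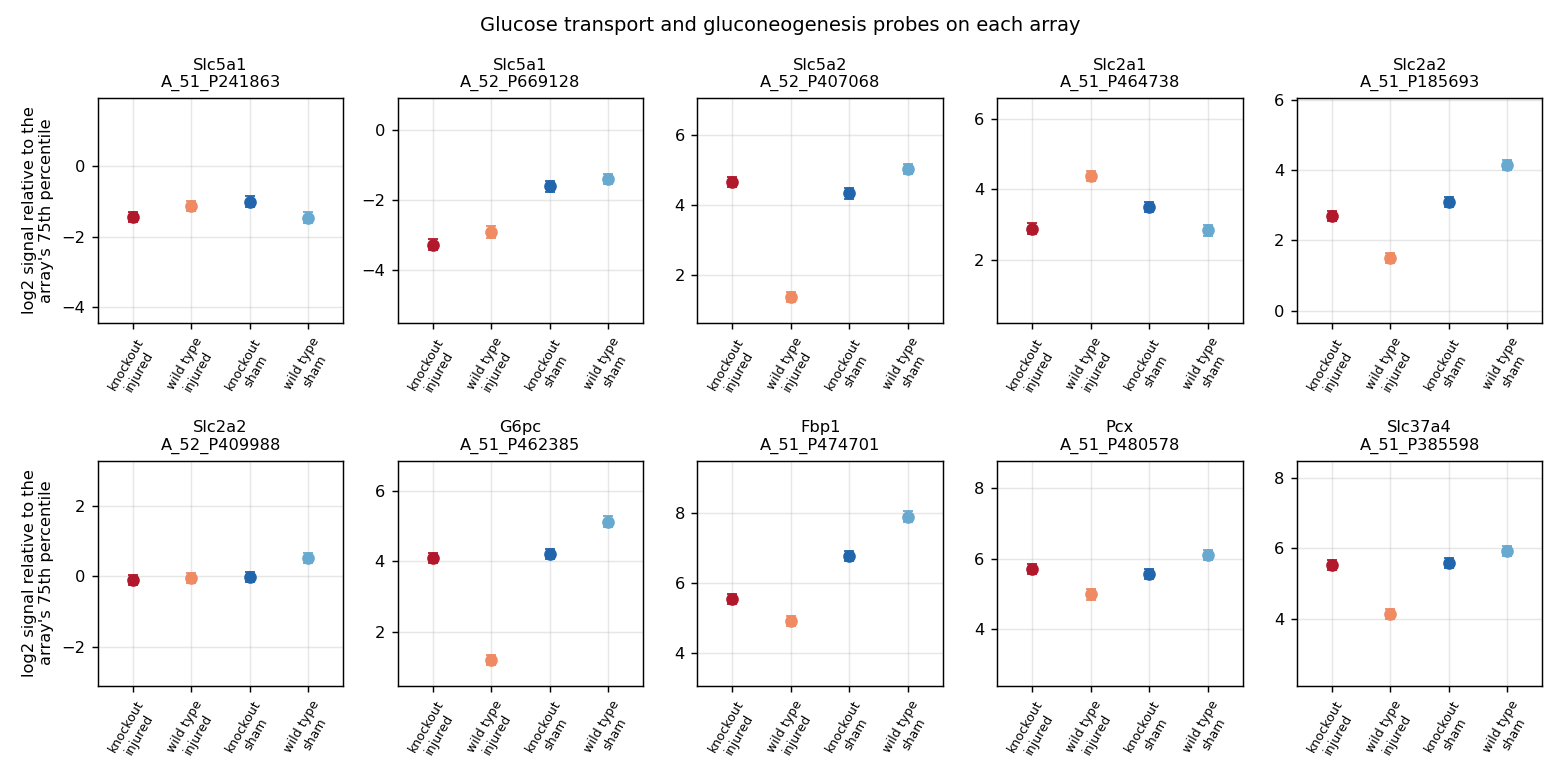
Each panel shows 1 probe, with the 4 arrays along the x axis and the log2 signal relative to the array's 75th percentile on the y axis (each panel spans the same number of log2 units). Points are single arrays and bars are the scanner's error. Slc5a2 and G6pc read 4.66 and 4.11 in knockout injured and 1.39 and 1.21 in wild type injured, and Slc2a1 has its highest value, 4.39, in wild type injured.

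Slc5a2 encodes SGLT2, the high-capacity sodium-glucose carrier of the early proximal tubule and the target of the gliflozin drugs. Its probe (A_52_P407068, chr7:135415685-135415743, mm9, plus strand) read 4.66 in injured and 4.33 in sham knockout kidney, and 1.39 in injured and 5.02 in sham wild type kidney. The wild type injured array stood far below the other 3, which lay between 4.33 and 5.02. Injured minus sham was 0.32 in knockout and -3.63 in wild type, where the injured level was 8.1% of sham. Injured knockout was 9.63-fold above injured wild type, and in sham kidney knockout minus wild type was -0.68. The knockout injury difference changed sign with normexp, another way of correcting the background, to -0.21, and the wild type difference kept to between -3.73 and -3.58 over 6 alternatives.

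Slc5a1 encodes SGLT1, the high-affinity carrier that takes up glucose left over in the late proximal tubule. Its 2 probes lie close together on chromosome 5 and did not move alike. Probe A_51_P241863 (chr5:33504352-33504411, mm9, plus strand) read -1.43 in injured and -0.997 in sham knockout kidney, and -1.12 in injured and -1.45 in sham wild type kidney. Probe A_52_P669128 (chr5:33504561-33504620, mm9, plus strand) read -3.27 in injured and -1.61 in sham knockout kidney, and -2.90 in injured and -1.41 in sham wild type kidney. By the brighter of them the injury difference was -0.43 in knockout and 0.33 in wild type. The other gave -1.65 in knockout and -1.49 in wild type, lower by more than 2-fold in both. With normexp background correction fitted on all spots these became 0.40 in knockout and -0.42 in wild type. The data thus give no single direction for Slc5a1, and which probe reads the transcript was not tested.

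Slc2a2 encodes GLUT2, the facilitative carrier on the basolateral side of the early proximal tubule, also known from liver and the beta cell. Its brighter probe (A_51_P185693, chr3:28627016-28627075, mm9, plus strand) read 2.69 in injured and 3.08 in sham knockout kidney, and 1.50 in injured and 4.13 in sham wild type kidney. Wild type injured was the lowest array and wild type sham the highest, with the knockout arrays between them. The injury difference was -0.40 in knockout and -2.63 in wild type, where 16.2% of the sham level was left. Knockout minus wild type was 1.19 in injured and -1.05 in sham kidney. The dimmer probe (A_52_P409988) covers 709 bases of the genome with 60 bases of probe (chr3:28625253-28625961, mm9, plus strand), so it crosses at least 1 intron. Its sequence is shown, 5′ to 3′ and with no part in capitals, because it is the only member probe that reads across a splice junction.
Slc2a2 probe A_52_P409988: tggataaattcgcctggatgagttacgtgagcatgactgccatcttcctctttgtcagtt
That probe read -0.10 in injured and 0.00 in sham knockout kidney, and -0.04 in injured and 0.52 in sham wild type kidney. Its injury difference was -0.10 in knockout and -0.57 in wild type, the same direction as the brighter probe but a smaller size.

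Slc2a1 encodes GLUT1, the facilitative carrier found in most cells and, in the nephron, mainly in later segments, where glucose is used as fuel. Its probe (A_51_P464738, chr4:118809864-118809923, mm9, plus strand) read 2.89 in injured and 3.50 in sham knockout kidney, and 4.39 in injured and 2.83 in sham wild type kidney. Wild type injured was the highest of the 4 arrays. The injury difference was -0.61 in knockout and 1.56 in wild type, and knockout minus wild type was -1.50 in injured kidney. In sham kidney knockout minus wild type was 0.67. Before scaling, the processed signal was 2685 in injured and 5276 in sham knockout kidney, and 3807 in injured and 3253 in sham wild type kidney. The size of the wild type difference thus rests on the scaling between arrays. The percentile rank of the probe within its array, which needs no scaling, was 93.5 in knockout injured, 97.5 in wild type injured, 95.6 in knockout sham and 93.0 in wild type sham. Both directions were kept under the 6 alternatives, from -1.04 to -0.61 in knockout and from 1.33 to 1.62 in wild type.

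Pcx encodes pyruvate carboxylase, the mitochondrial enzyme that makes oxaloacetate from pyruvate. Its probe (A_51_P480578, chr19:4621637-4621696, mm9, plus strand) read 5.71 in injured and 5.56 in sham knockout kidney, and 4.98 in injured and 6.11 in sham wild type kidney. The injury difference was 0.15 in knockout and -1.13 in wild type, just past 2-fold. The knockout value was -0.52 with normexp. Pyruvate carboxylase is also abundant in fat, and the wild type sham array was the only one with clear fat signal. The 5 adipocyte markers summed to 0.0894 in knockout injured, 0.184 in wild type injured, 0.233 in knockout sham and 25.9 in wild type sham, in multiples of each array's 75th percentile. Adipoq and Plin1 were not well above background on the 3 arrays other than wild type sham, and Lep on none. The part of fat in the wild type value of Pcx was not tested.

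Fbp1 encodes fructose-1,6-bisphosphatase, the enzyme that opposes phosphofructokinase. Its probe (A_51_P474701, chr13:62966175-62966234, mm9, minus strand) read 5.53 in injured and 6.76 in sham knockout kidney, and 4.93 in injured and 7.89 in sham wild type kidney. Both injured arrays lay below both sham arrays. The injury difference was -1.23 in knockout, with 42.7% of the sham level left, and -2.96 in wild type, with 12.9% left. Fbp1 was the only member at least 2-fold lower in both genotypes by its brightest probe, against 1.91% of 16123 genes. Knockout minus wild type was 0.60 in injured and -1.13 in sham kidney, so the smaller injury difference in knockout came with a lower sham level as well as a higher injured level.

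G6pc encodes the catalytic subunit of glucose-6-phosphatase, the last step of glucose release. Its probe (A_51_P462385, chr11:101238947-101239006, mm9, plus strand) read 4.11 in injured and 4.22 in sham knockout kidney, and 1.21 in injured and 5.13 in sham wild type kidney. As with Slc5a2, wild type injured stood apart from the other 3 arrays. The injury difference was -0.11 in knockout and -3.93 in wild type, where 6.58% of the sham level was left. Injured knockout was 7.47-fold above injured wild type, and knockout minus wild type was -0.92 in sham kidney.

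Slc37a4 encodes the transporter that carries glucose-6-phosphate into the endoplasmic reticulum to the phosphatase. Its probe (A_51_P385598, chr9:44210987-44211045, mm9, plus strand) read 5.53 in injured and 5.59 in sham knockout kidney, and 4.14 in injured and 5.92 in sham wild type kidney. The injury difference was -0.05 in knockout and -1.78 in wild type, with 29.2% of the sham level left. Injured knockout was 2.62-fold above injured wild type. The transporter therefore had the same order of injured arrays as its partner G6pc, with a smaller gap.

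**Figure D2:**
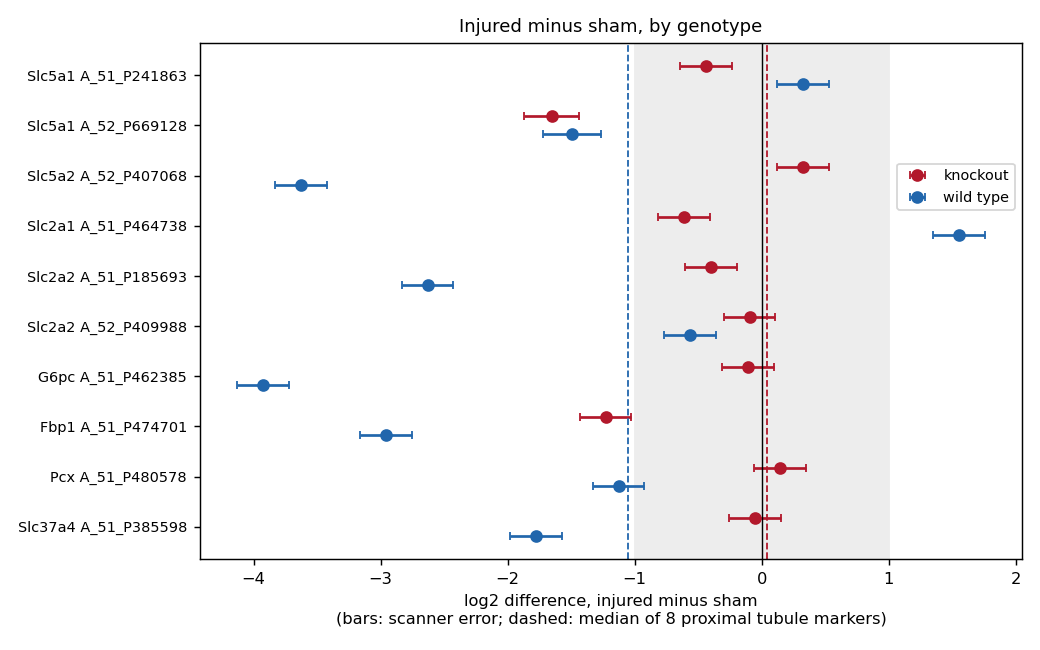
The log2 difference, injured minus sham, is given for each member probe in knockout (red) and wild type (blue) kidney. Bars are the scanner's error, the grey band marks differences under 2-fold, and dashed lines mark the median of 8 proximal tubule markers, 0.05 in knockout and -1.05 in wild type. G6pc, at -0.11 in knockout and -3.93 in wild type, and Slc5a2, at 0.32 in knockout and -3.63 in wild type, have the widest gaps between the genotypes.

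In injured kidney 4 of 8 genes, Slc5a2, Slc2a2, G6pc and Slc37a4, were at least 2-fold higher in knockout than in wild type, against 11.2% of 16530 genes. Slc2a1 was lower by that much, against 8.12%. The median of the members was 0.95, against 0.04 for all genes. With normexp the members 2-fold apart numbered 3, since Slc37a4 and Slc2a2 no longer passed, Slc37a4 at 0.91. The Slc2a2 call rests on its brighter probe: the dimmer probe gave -0.06, and the mean over both gave 0.56, which left 4 members apart. In sham kidney 0 of 8 genes were 2-fold higher in knockout, against 5.39% of 16775 genes, and 2, Slc2a2 and Fbp1, were lower, against 3.72%. The Slc2a2 call in sham kidney also rests on its brighter probe, at -1.05. The dimmer probe gave -0.53 and the mean over both -0.79. Quantile normalization gave -0.90 for the brighter probe and the authors' table -0.91. With median scaling G6pc passed as well, at -1.07. The median of the members in sham kidney was -0.62, against 0.04 for all genes. These comparisons carry the slide as well as the genotype, and the sham comparison also the sex pattern.

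The difference of the responses, knockout injury difference minus wild type injury difference, was at least 1 on the log2 scale for 6 of 8 genes, against 9.85% of 14806 genes. It was 3.95 for Slc5a2, 3.82 for G6pc, 2.23 for Slc2a2, 1.73 for Fbp1, 1.72 for Slc37a4 and 1.27 for Pcx. Slc2a1 alone was at least that far in the other direction, at -2.17, against 9.32% of genes. The Slc2a2 value is that of its brighter probe: the dimmer probe gave 0.47, and the mean over both gave 1.35. With normexp Pcx no longer passed, at 0.87 fitted on all spots and 0.91 without flagged spots. The median difference of the responses was 1.73 for the members and -0.02 for all genes. This measure is built from the 4 arrays already described and is not independent of those comparisons.

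Since the knockout sham array has the female pattern, injured knockout kidney was also set against wild type sham, a comparison chosen after seeing the data. By that measure 3 of 8 genes were at least 2-fold lower, against 9.37% of 16652 genes. They were Fbp1 at -2.35, Slc2a2 at -1.45 and G6pc at -1.03. Slc5a2 stood at -0.36, Slc37a4 at -0.39, Pcx at -0.40, Slc2a1 at 0.06 and Slc5a1 at 0.02. The count of members lower in injured knockout thus depended on the sham array, at 3 with wild type sham and 1 with knockout sham. The comparison with wild type sham crosses genotype and slide, so it is not an injury difference within knockout. Wild type sham was also the only array with clear fat signal. In either case injured knockout kept 49.1% or more of the sham level of G6pc, against 6.58% in wild type.

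**Figure D3:**
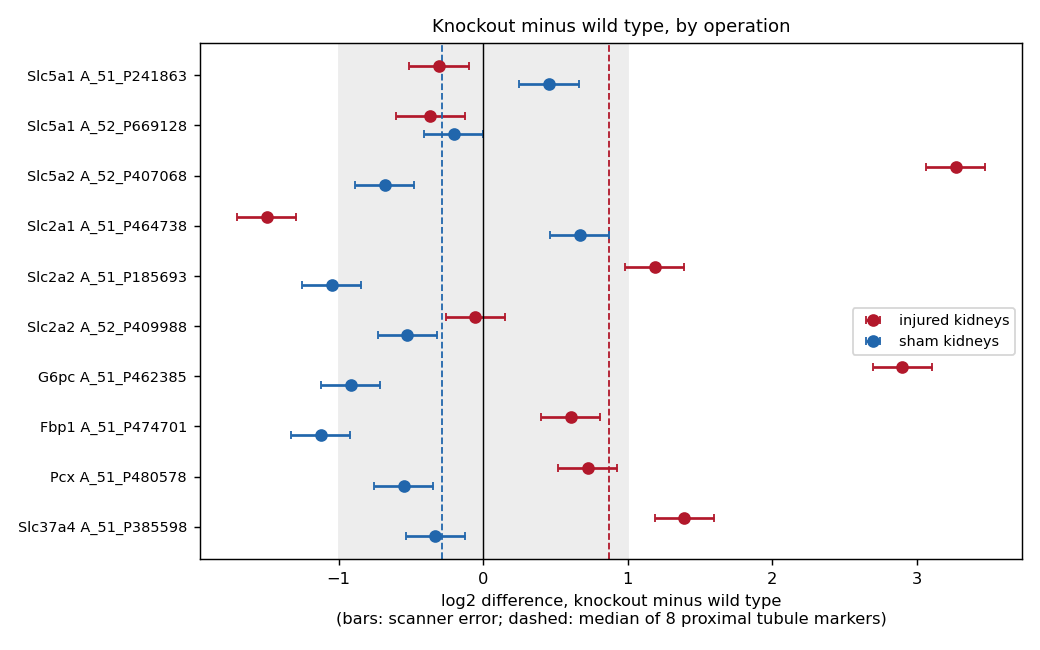
The log2 difference, knockout minus wild type, is given for each member probe in injured (red) and sham (blue) kidney. Bars are the scanner's error, the grey band marks differences under 2-fold, and dashed lines mark the median of 8 proximal tubule markers, 0.87 in injured and -0.28 in sham kidney. Slc5a2 at 3.27 and G6pc at 2.90 lie farthest to the right in injured kidney, while Slc2a1 lies at -1.50.

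Most proximal tubule markers moved with the members. All 8 were well above background on 4 of 4 arrays and summed to 619 in knockout injured, 279.1 in wild type injured, 589 in knockout sham and 736 in wild type sham. After injury 1 of 8 was at least 2-fold higher and 1 lower in knockout, against 4.93% and 4.2% of all genes. Their knockout median was 0.05 and became -0.51 with normexp. In wild type 0 were higher and 6 lower, with a median of -1.05, against 14.5% and 15.1% of all genes. Relative to that wild type marker median, G6pc lay at -2.87, Slc5a2 at -2.57, Fbp1 at -1.91 and Slc2a2 at -1.58, while Pcx lay at -0.07 (log2 differences). Slc34a1, the brush border phosphate carrier and 1 of the 8 markers, was as low as the lowest members, at 0.00 in knockout and -3.88 in wild type. The markers Slc22a6 and Slc13a3, carriers of organic anions and dicarboxylates, did otherwise. Slc22a6 stood at 1.02 in knockout and 0.19 in wild type, and Slc13a3 at -1.03 in knockout and -0.81 in wild type, with injured knockout minus injured wild type at -1.12. Lower marker medians after injury in wild type were not particular to the proximal tubule. They were -1.46 for thick ascending limb, -1.92 for podocyte, -1.64 for endothelium and -0.76 for distal tubule and collecting duct. In knockout these medians were -0.995, -0.57, -0.45 and -0.64. In whole kidney RNA, fewer proximal tubule cells and less RNA per cell cannot be told apart. The 5 tubular injury markers summed to 15.4 in knockout injured, 140 in wild type injured, 7.36 in knockout sham and 6.66 in wild type sham. Vim was the highest of them on both sham arrays and changed little, at 0.31 in knockout and 0.29 in wild type. In each genotype 4 of 5 were at least 2-fold higher after injury and 0 lower. Their median was 2.46 in knockout and 5.61 in wild type. Havcr1 rose more in knockout, at 5.54 against 3.07, and Krt20, Lcn2 and Sox9 rose more in wild type. The sham levels differed, at -4.95 in knockout and 0.35 in wild type for Havcr1. The part of the injury markers in the member values was not tested.

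Slc2a1 moved against the proximal marker median and with the neutrophil markers. The 3 macrophage markers did not move alike after injury in wild type, with Adgre1 at -2.83, Csf1r at -1.17 and Cd68 at 2.80. The 2 neutrophil markers on the array, S100a8 and S100a9, summed to 2.88 in knockout injured, 11.4 in wild type injured, 6.30 in knockout sham and 4.37 in wild type sham. Endothelial markers, 4 of 4 above background on every array, summed to 16.0 in knockout injured, 4.29 in wild type injured, 22.2 in knockout sham and 18.1 in wild type sham, so they were lowest where Slc2a1 was highest. Erythroid markers, 3 of 4 of which had a probe, summed to 0.478 in knockout injured, 0.888 in wild type injured, 31.1 in knockout sham and 3.68 in wild type sham. The part of these cells in the Slc2a1 values was not tested.

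Other carriers of the SLC5 and SLC2 families, with Slc50a1 of another carrier family and the SGLT2 partner Pdzk1ip1, formed a list of 19 genes. After injury 0 of 18 above background were at least 2-fold higher and 3 lower in knockout, with a median of -0.15, against 4.93% higher and 4.2% lower among all genes. In wild type 2 of 17 were higher and 9 lower, with a median of -1.09, against 14.5% and 15.1% of all genes. The largest differences in wild type were those of Slc5a8, a sodium-coupled lactate carrier, Slc2a5, the fructose carrier GLUT5, and Slc2a12, the glucose carrier GLUT12. Slc5a8 stood at -0.86 in knockout and -3.91 in wild type. Slc2a5 stood at -0.58 in knockout and -3.40 in wild type, and Slc2a12 at -1.01 in knockout and -3.00 in wild type. In injured kidney 9 of 17 genes of this list were at least 2-fold higher in knockout than in wild type and 0 were lower, against 11.2% and 8.12% of all genes. Pdzk1ip1, named after its values were seen, stood at 0.29 in knockout and -1.09 in wild type, a smaller wild type difference than that of Slc5a2.

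Of 22 other genes of gluconeogenesis and precursor supply, 0 were at least 2-fold higher and 2 lower after injury in knockout, with a median of -0.31. The shares of all genes in knockout were 4.93% higher and 4.2% lower. With normexp as many as 8 were lower, and the median reached -0.69. No share of all genes is given here for that setting. In wild type 2 were higher and 11 lower, with a median of -0.88, against 14.5% higher and 15.1% lower among all genes. Sord, the sorbitol dehydrogenase that yields fructose, stood at -0.19 in knockout and -3.36 in wild type. Khk, the fructose-phosphorylating ketohexokinase, stood at -0.11 in knockout and -1.95 in wild type. Slc38a3, a glutamine carrier, went the other way, at -0.22 in knockout and 2.09 in wild type. Glud1, glutamate dehydrogenase, was the other gene at least 2-fold higher in wild type, at -0.07 in knockout and 1.20 in wild type. Got1 and Got2, the aspartate aminotransferases that also use glutamate, were lower in both genotypes, Got1 at -1.18 in knockout and -1.13 in wild type and Got2 at -1.03 in knockout and -1.40 in wild type. These 3 genes are named after their values were seen.

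The opposing glycolytic steps, 13 hexokinase, phosphofructokinase, pyruvate kinase and PFKFB genes, had a median injury difference of -0.06 in knockout and 0.60 in wild type. In knockout 2 were at least 2-fold higher and 1 lower, against 4.93% and 4.2% of all genes. In wild type 3 were higher and 1 lower, against 14.5% and 15.1% of all genes. The knockout median was 0.24 with normexp fitted without flagged spots, so it has no settled sign. Hk2, a hexokinase that traps glucose in the cell, stood at 1.61 in knockout and 2.08 in wild type. Pfkfb1, which sets the level of the phosphofructokinase activator, stood at 1.55 in knockout and 1.96 in wild type. The knockout value of Hk2 depends on the sham array: it read -2.71 in knockout injured, -4.33 in knockout sham and -2.42 in wild type sham. Knockout sham had the female pattern, and wild type sham lay on the other slide and had the fat signal. Which sham level of Hk2 is the unusual one was not tested. Pfkfb1 read -0.87 in knockout injured, above both knockout sham at -2.42 and wild type sham at -2.20. Pfkm, the muscle-type phosphofructokinase, stood at -0.71 in knockout and -1.53 in wild type.

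Among 19 regulators on the array, 0 were 2-fold apart after injury in knockout, with a median of -0.02. In wild type 2 were higher and 2 lower, with a median of -0.41. These counts are near or under the shares of all genes, 4.93% higher and 4.2% lower in knockout and 14.5% and 15.1% in wild type. The genes that follow are given as values only. Pdk4, the kinase that turns off pyruvate dehydrogenase, stood at 0.39 in knockout and 2.12 in wild type. Cebpb, a transcription factor of the acute phase and of gluconeogenic genes, stood at 0.57 in knockout and 1.78 in wild type. Nr3c1, the glucocorticoid receptor, stood at -0.49 in knockout and -1.32 in wild type. Hnf4a, a transcription factor of proximal tubule and liver genes that is named after its values were seen, stood at 0.12 in knockout and -1.06 in wild type.

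**Figure D4:**
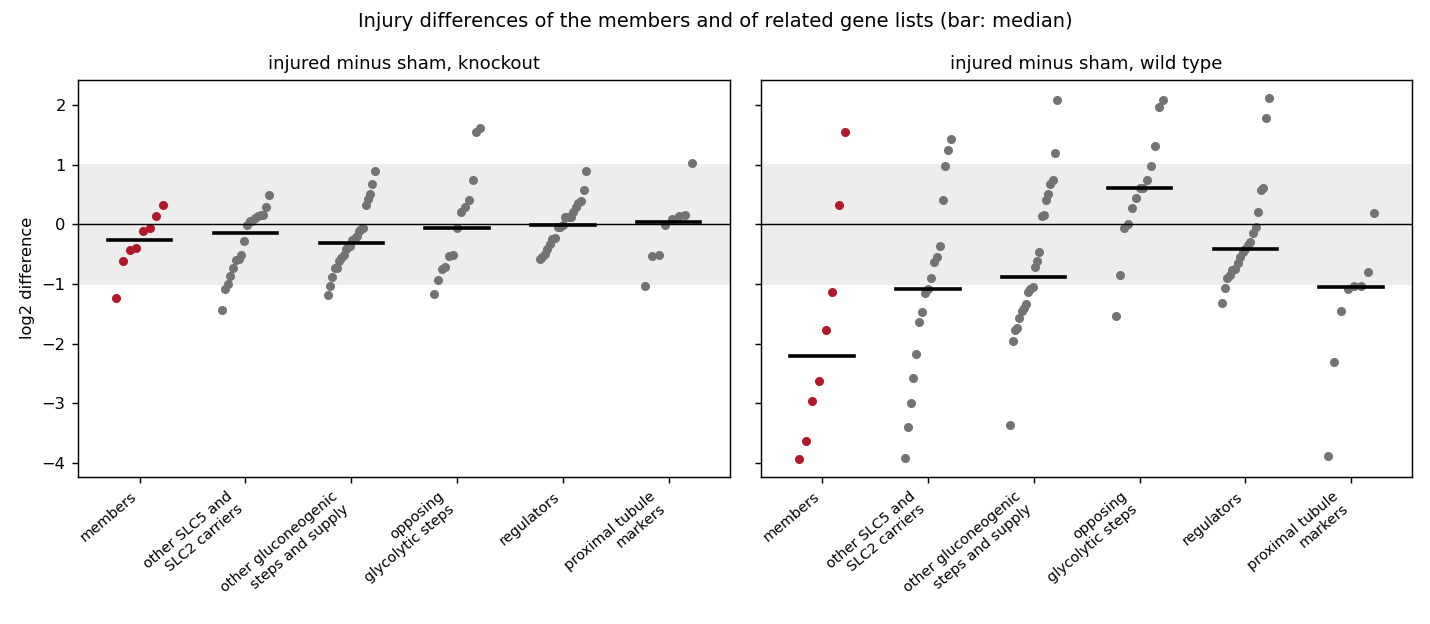
Points are the injured minus sham log2 differences of single genes, in knockout on the left and wild type on the right, for the 8 members (red) and 5 related lists (grey), and horizontal bars are medians. In wild type the member median is -2.20, below those of the other carriers at -1.09 and the proximal tubule markers at -1.05, and the glycolytic list has its median at 0.60.

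Genes with the nearest pattern over the 4 arrays were found by the distance between values centred on each gene's own mean, among 13979 named genes above background on every array. For Slc5a2 they were Dpep1, the brush border dipeptidase, at a distance of 0.27, Cml3 at 0.33 and Ces1e at 0.40. Dpep1 read 3.17 in injured and 3.14 in sham knockout kidney, and -0.15 in injured and 3.62 in sham wild type kidney. Ces1e, at 0.25, and Dpep1, at 0.46, were also among the 3 nearest to G6pc, with Olfm3 between them at 0.35. Slc2a2 had Them7, Fundc2 and Ugt3a2 at 0.13 to 0.16, and Fbp1 had Iah1, Fhod3 and Atp4a at 0.12 to 0.22. Pcx was nearest to Col4a4 and Arl6ip1, and Slc37a4 to Fmo2, Plekha6 and Fzd1, all at 0.05 to 0.07. For Slc2a1 they were Cyp2c66 at 0.07, the immediate early nuclear receptor Nr4a1 at 0.10 and Asb4 at 0.14. For Slc5a1, by its brighter probe, they were Gpr27, Armcx4 and Maoa at 0.03 to 0.07. With 4 arrays a near pattern says only that the values lie close together.

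The only replicated contrasts set 2 arrays against 2, with genotype and injury as additive terms. In that fit limma called 0 of 16356 genes for injury (0.0%) and 0 for genotype (0.0%) at an adjusted p under 0.05. At an unadjusted p under 0.05 there were 844 higher and 1002 lower genes for injury and 537 higher and 348 lower for genotype. Fbp1 had the smallest unadjusted limma p of the members for injury, 0.0221, with a difference of -2.09 over both genotypes and an adjusted p of 0.431. Slc2a2 followed with -1.51 and an adjusted limma p of 0.431. For G6pc and Slc5a2 the injury differences of -2.02 and -1.65 had adjusted limma p-values of 0.456 and 0.510. For genotype the members' adjusted limma p-values lay between 0.802 and 0.981. The fit has 1 residual degree of freedom and counts a difference between the responses as error, so it does not test the gap between genotypes described above.

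Promoters are shown for G6pc, Fbp1 and Slc2a2, among the 6 members lower in wild type injured kidney, and for Slc2a1, higher there. Each is the 250 bases before the RefSeq start of the gene in GRCm38.p6, a different build from the probe coordinates, 5′ to 3′ on the gene's strand. The table held promoters for 8 of 9 listed genes. Those of Pcx and Slc37a4, also lower, are not shown, and Slc5a2 had none. Capitals mark matches on either strand to 5 short motifs. They are GTTAAT, the TATA box motif TATAAA, the GC box motif GGGCGG, the E-box motif CACGTG and the full cyclic AMP response element TGACGTCA.
G6pc promoter, chr11:101367466-101367715, plus strand: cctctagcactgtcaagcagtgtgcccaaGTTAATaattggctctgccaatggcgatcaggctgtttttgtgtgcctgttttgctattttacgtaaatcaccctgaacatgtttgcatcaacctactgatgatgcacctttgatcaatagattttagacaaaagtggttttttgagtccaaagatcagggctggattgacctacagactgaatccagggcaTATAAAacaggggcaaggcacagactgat
Fbp1 promoter, chr13:62888283-62888532, minus strand: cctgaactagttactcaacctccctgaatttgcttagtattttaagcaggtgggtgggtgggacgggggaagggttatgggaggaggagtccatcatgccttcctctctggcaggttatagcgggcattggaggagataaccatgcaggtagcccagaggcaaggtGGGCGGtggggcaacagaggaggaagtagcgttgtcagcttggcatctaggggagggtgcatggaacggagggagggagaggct
Slc2a2 promoter, chr3:28697653-28697902, plus strand: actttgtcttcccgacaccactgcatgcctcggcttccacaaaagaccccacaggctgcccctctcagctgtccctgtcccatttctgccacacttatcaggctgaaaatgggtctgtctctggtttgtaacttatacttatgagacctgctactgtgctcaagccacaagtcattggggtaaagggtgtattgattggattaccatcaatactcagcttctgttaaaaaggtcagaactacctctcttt
Slc2a1 promoter, chr4:119108495-119108744, plus strand: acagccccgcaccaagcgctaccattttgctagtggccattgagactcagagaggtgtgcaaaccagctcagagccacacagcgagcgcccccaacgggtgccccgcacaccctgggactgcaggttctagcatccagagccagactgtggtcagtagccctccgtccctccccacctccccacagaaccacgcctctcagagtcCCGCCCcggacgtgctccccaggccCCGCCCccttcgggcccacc
The G6pc window holds GTTAAT 221 bases and TATAAA 29 bases before the start. The Fbp1 window holds GGGCGG 84 bases before the start, and the Slc2a1 window holds it on the reverse strand at 45 and 20 bases. None of the 5 motifs is in the Slc2a2 window. Among 32851 RefSeq promoters of the same length, GTTAAT is in 6.43%, TATAAA in 12.4%, GGGCGG in 32.7%, CACGTG in 6.02% and TGACGTCA in 1.55%. A match describes the letters only, and no binding was measured.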

How the data were processed

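Total kidney RNA of 4 samples was hybridised to 4 one-colour Cy3 Agilent arrays. The deposited scanner files hold processed intensity values, background-subtracted and detrended within each array by Agilent Feature Extraction 10.7.3.1 per the file headers (9.1 per the submitters' processing notes), and carry no scaling across arrays. A second deposited file, a table of the authors' log2 values, whose normalization is not given in the sources used here, served as an alternative. Its columns had medians of 5.91 to 5.93 and matched the ranks of the scanner values. Its direction was that of the scanner values, and no gene centring was seen.

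Control spots and spots with outlier flags were left out, repeated spots averaged, and each array's 75th percentile subtracted after log2. Probes were named through the RefSeq gene table of GRCm38.p6, and the brightest probe stood for a gene. Differences were counted at 2-fold among genes well above background on either array, or on 4 of 4 arrays for the difference of responses. limma 3.58.1 (R 4.3.3) was fitted to genes above background on at least 2 arrays with Benjamini-Hochberg adjustment. With 1 array per group, the spread behind a p-value is that between these arrays, with 1 residual degree of freedom. It includes any difference between the responses, and how much of the spread between animals it holds is not known.

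The members and lists were chosen with earlier results of these data known. Related lists give their 3 genes of largest wild type injury difference. Every member probe is given, and 3 nearest genes per member, of which 1 is not reported here. Motifs were searched by exact match. Alternatives covered background correction (normexp, offset 50), scaling, the authors' table, flags, probe choice, a 4-fold threshold and dim-probe filters. The number of arrays limits the precision.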

Additional observations from a re-analysis of the deposited data

Results flagged for a closer look

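For 3 members whose responses were at least 2-fold apart, the injury difference also had opposite signs in the 2 genotypes, with 1 array in each group, and the difference between genotypes was not tested. Slc5a2 stood at 0.32 in knockout and -3.63 in wild type, a gap of 3.95. Slc2a1 stood at -0.61 in knockout and 1.56 in wild type, a gap of -2.17. Pcx stood at 0.15 in knockout and -1.13 in wild type, a gap of 1.27. Slc5a1 had opposite signs too by its brighter probe, at -0.43 in knockout and 0.33 in wild type, with a smaller gap of -0.76, but not by its other probe. With normexp the knockout differences of Slc5a2 and Pcx were -0.21 and -0.52, so the signs were then alike in the genotypes. With wild type sham as the sham array, which crosses genotype and slide, they were -0.36 and -0.40, and that of Slc2a1 was 0.06.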

How the results depend on the processing

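Of 50 member probe differences, 24 passed 2-fold, of which 23 kept their direction under every alternative run and 18 stayed past 2-fold. The exception in direction was the dimmer Slc5a1 probe in knockout, at 0.401 and 0.347 with normexp fitted on all spots and without flagged spots. At a 4-fold threshold the members apart numbered 0 for injury in knockout, 4 for injury in wild type, 2 for genotype in injured and 0 in sham kidney, and 4 for the responses. With either normexp fit they numbered 2 for injury in knockout, 3 for genotype in injured kidney and 6 for the responses. The shares of all genes with normexp and at 4-fold are not given here, so these member counts have no background beside them. The mean over probes gave 2 for injury in knockout and 1 for genotype in sham kidney, as did quantile normalization and the authors' table (1) for sham. Wild type sham in place of knockout sham, chosen after seeing the data, gave 3 for injured knockout, but crosses genotype and slide. limma called 0 genes in all settings other than normexp, which gave 4238 and 4273 for injury and 97 and 107 for genotype. The cause was not tested. The median injury difference of all 41142 probes was 0.09 in knockout and 0.25 in wild type at the 75th percentile scaling, 0.01 in knockout and 0.00 in wild type after quantile normalization, and 1.14 in knockout and 0.72 in wild type with normexp. No paired analysis was possible because each group held 1 array. Dim probes limit Slc5a1 most, as both its probes lay below the 75th percentile on every array.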
